A study of Mus musculus with 145 samples.

Results

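The T cell receptor complex genes described here are 10 listed genes of the deposited mouse skin count table, out of 55416 genes in it. They are the 4 CD3 chain genes Cd3e, Cd3d, Cd3g and Cd247, the receptor δ constant gene Trdc, and 5 T cell surface genes, Thy1, Itgae, Il2rb, Cd8a and Cd4. The members were taken by name from the table. RNA of dorsal skin was measured in mice exposed to 5, 10, 20 or 40 mJ/cm2 of ultraviolet light from a tanning canopy (96.4% UVA and 3.6% UVB, from 8 lamps of 100 W) and in sham-handled mice that received 0 mJ/cm2. Skin was taken at 0, 6, 24, 48, 72 and 96 h, which makes 30 groups, 25 of 5 animals and 5 of 4 animals (20 mJ/cm2 at 48 h and the 4 exposed groups at 96 h), and 145 libraries in all. Every library is a separately numbered animal. The titles of 5 libraries carry the word repeat, among them 40 mJ/cm2 replicate 2 at 96 h, and do not say what was repeated. Strain, sex and age are not given in the labels, and no genetic change is named for any group.

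The T cell receptor is a pair of variable chains, α with β or γ with δ, that recognises a ligand but cannot signal alone. It reaches the cell surface only with the CD3ε, CD3δ, CD3γ and ζ chains, whose cytoplasmic tails carry the tyrosine motifs that start signalling, so the 4 CD3 genes mark T cells of either kind, while Trdc marks γδ T cells. Mouse epidermis, unlike human epidermis, holds a dense network of γδ T cells with dendrites that carry the integrin αE (Itgae, CD103), which binds E-cadherin of keratinocytes, the glycoprotein Thy1 and the β chain of the interleukin-2 and interleukin-15 receptor (Il2rb). These cells mostly lack the coreceptors Cd4 and Cd8a, which mark αβ T cells of the helper and the cytotoxic kind.

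The 250 bases before the annotated start of each CD3 chain gene are shown because T cells express these genes together and 3 of them, Cd3e, Cd3g and Cd247, fell in the comparisons below. They come from RefSeq on GRCm38.p6, read 5′ to 3′ on the strand of the gene. Capitals mark GGAAG on either strand (CTTCC where it lies on the other), which contains the shorter core GGAA bound by ETS factors. Copies of GGAA not followed by G were neither marked nor counted. The promoter table held 5 of the 10 members. The windows are chr9:45009612-45009861 (minus strand) for Cd3e, chr9:44981536-44981785 (plus strand) for Cd3d, chr9:44980432-44980681 (minus strand) for Cd3g and chr1:165788431-165788680 (plus strand) for Cd247.
Cd3e: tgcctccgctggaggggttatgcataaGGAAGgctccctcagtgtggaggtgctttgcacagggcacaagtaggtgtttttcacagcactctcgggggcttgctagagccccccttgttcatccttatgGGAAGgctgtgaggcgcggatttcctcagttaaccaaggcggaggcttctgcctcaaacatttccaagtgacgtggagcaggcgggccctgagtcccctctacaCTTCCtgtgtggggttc
Cd3d: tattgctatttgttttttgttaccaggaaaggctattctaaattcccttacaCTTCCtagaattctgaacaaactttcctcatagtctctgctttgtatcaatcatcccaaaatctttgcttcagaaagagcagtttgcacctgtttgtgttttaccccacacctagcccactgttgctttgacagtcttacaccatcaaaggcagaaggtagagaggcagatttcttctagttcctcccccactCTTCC
Cd3g: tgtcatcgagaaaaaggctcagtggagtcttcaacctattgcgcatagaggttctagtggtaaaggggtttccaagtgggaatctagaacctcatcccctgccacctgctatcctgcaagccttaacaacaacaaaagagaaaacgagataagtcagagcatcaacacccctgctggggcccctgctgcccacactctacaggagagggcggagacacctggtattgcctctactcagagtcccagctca
Cd247: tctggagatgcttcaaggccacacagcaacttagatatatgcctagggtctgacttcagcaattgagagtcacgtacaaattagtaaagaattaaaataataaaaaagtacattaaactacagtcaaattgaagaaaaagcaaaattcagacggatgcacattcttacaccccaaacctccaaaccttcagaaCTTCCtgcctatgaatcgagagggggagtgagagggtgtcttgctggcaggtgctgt
Cd3d and Cd3g are read away from each other, from starts 1355 bases apart on chromosome 9. The sequence GGAAG was found 3 times before Cd3e, 2 times before Cd3d, 1 time before Cd247 and 0 times before Cd3g, and 64.06% of 32817 promoter windows of the same length hold it. The window of Cd3g does hold the shorter GGAA, which was not counted. The E-box CAGNTG, searched on both strands, was found 2 times before Cd3g, 1 time each before Cd3d and Cd247 and 0 times before Cd3e, against 44.83% of all windows. The GATA sequence AGATAA was found 1 time, before Cd3g (9.99% of windows), and the RUNX sequence TGTGGT in none of the 4 (14.04% of windows). The windows also differ in base composition: Cd3e has 57.2% G and C, Cd3g 51.6%, and Cd3d and Cd247 41.2% each, against a median of 52.4% over all windows.

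Library depth was 11.1 M counts at the median (M is 1000000 counts), between 0.18 and 64.6 M. Only 2 libraries held under 1 M, 10 mJ/cm2 replicate 5 at 6 h and 20 mJ/cm2 replicate 5 at 0 h, neither at 40 mJ/cm2 nor in a sham group, but all doses of a time share 1 fit, so they enter the spread behind every test at those times. Levels are CPM (counts per 1000000 counts) on library sizes scaled by TMM. A fold change is a log2 value against sham animals of the same time from edgeR's quasi-likelihood test, with its SE, and every adjusted p comes from that test with Benjamini-Hochberg adjustment over all 18677 genes tested. A gene is said to rise or fall at an adjusted p under 0.05. All 10 members were tested. In whole skin, fewer cells of a type and less RNA per cell cannot be told apart. Muscle transcripts were abundant in these samples: the 14 skeletal muscle marker genes summed to 38400 to 62900 CPM in the sham animals at 48 h.

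In sham skin all 10 genes were low except Thy1, which is also expressed by dermal fibroblasts. Over the 30 sham animals Thy1 averaged 120 ± 36.4 CPM (SD), or 39.9 ± 12.2 CPM per kilobase. The length is that of all annotated exons of a gene merged, not that of a single transcript. Per kilobase, Cd3g (3.27 ± 0.684) and Trdc (3.26 ± 0.958) came next and did not differ beyond their spread. Il2rb (1.71 ± 0.713), Itgae (1.66 ± 0.525), Cd3d (1.31 ± 0.503), Cd247 (1.09 ± 0.344), Cd3e (1.06 ± 0.405) and Cd4 (0.92 ± 0.326) followed, and each lay within 1 SD of its neighbours. Cd8a was lowest at 0.153 ± 0.0943 CPM per kilobase, with a median count of 5 and a count of 0 in 11 of 145 libraries. Between the 6 sham groups edgeR called 0 of the 10 members, against 4.95% of all genes. The smallest adjusted p among the members was that of Cd3e (edgeR adjusted p = 0.248). Sham means of Cd3e ran from 2.67 ± 1.48 CPM at 0 h to 5.79 ± 1.70 CPM at 48 h (SD, n = 5 each).

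Cd3g, the CD3γ chain, fell at 40 mJ/cm2 at 6, 24, 48 and 72 h. At 6 h the exposed animals had 5.96, 1.83, 3.48, 3.97 and 4.6 CPM of Cd3g, against 9.91, 7.23, 10.1, 11.3 and 9.17 CPM in sham animals. Every exposed animal lay below every sham animal, and the change was -1.27 ± 0.27 (edgeR adjusted p = 0.00511). At 24 h Cd3g stood at 3.10, 8.09, 8.03, 5.49 and 2.60 CPM in exposed skin, against 11.6, 16.4, 9.74, 15.9 and 11.7 CPM in sham skin, a change of -1.27 ± 0.29 (adjusted p = 0.0173). The groups again did not overlap, although 2 exposed animals came close to the lowest sham animal.

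The fitted falls of Cd3g at 48 and 72 h were larger in size than those at 6 and 24 h. Of these differences only that between 48 and 24 h was tested (-0.19 ± 0.38), and it was not called. At 48 h the exposed animals had 5.72, 3.92, 2.32, 4.61 and 2.77 CPM of Cd3g, against 10.6, 7.76, 12.3, 12.7 and 9.37 CPM in sham animals, a change of -1.48 ± 0.24 (adjusted p = 0.000377) without overlap. At 72 h they had 2.62, 1.61, 6.13, 1.54 and 5.43 CPM, against 10.8, 13.1, 14.1, 11.3 and 10.2 CPM in sham animals, a change of -1.79 ± 0.34 (adjusted p = 0.0113) without overlap. At 72 h the exposed group held 28.9% of the sham level by the fitted fold. At 96 h Cd3g had 5.25, 8.09, 6.24 and 4.73 CPM in the 4 exposed animals, against 8.03, 11.2, 7.75, 9.51 and 10.7 CPM in sham animals, and the groups overlapped (-0.68 ± 0.28, adjusted p = 0.88). The call at 24 h was lost without sham replicate 2 or sham replicate 4, and the call at 72 h without 40 mJ/cm2 replicate 1.

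Cd3e, the CD3ε chain that pairs with the γ and the δ chain, fell at 24, 48 and 72 h. At 6 h its levels overlapped, with 3.57, 2.29, 2.58, 3.36 and 2.30 CPM in exposed animals against 3.35, 4.17, 4.97, 3.23 and 4.63 CPM in sham animals (-0.52 ± 0.27, adjusted p = 0.327). At 24 h Cd3e had 1.48, 2.96, 1.51, 1.99 and 1.68 CPM in exposed skin, against 5.92, 6.32, 4.22, 2.53 and 5.40 CPM in sham skin. A single sham animal, replicate 4, lay within the exposed range, and the change was -1.33 ± 0.26 (adjusted p = 0.0056).

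At 48 h Cd3e had 3.50, 2.7, 1.08, 2.98 and 2.24 CPM in exposed animals, against 7.67, 4.68, 4.53, 7.61 and 4.44 CPM in sham animals, with no overlap (-1.23 ± 0.32, adjusted p = 0.0184). At 72 h it had 1.55, 0.536, 1.56, 0.544 and 1.62 CPM, against 6.10, 3.56, 3.19, 5.63 and 5.29 CPM in sham animals. Here the highest exposed animal lay well below the lowest sham animal, and the change, -1.99 ± 0.39 (adjusted p = 0.0153), was the largest fall of any member at any time by the fitted fold. The Cd3e call at 48 h was lost without 40 mJ/cm2 replicate 3 or sham replicate 4, and when the muscle gene level entered the fit it became -0.69 ± 0.40 (adjusted p = 0.221). The call at 72 h was lost without 40 mJ/cm2 replicate 4 or sham replicate 4. A small part of the Cd3e exons, 135 bp, is shared with an antisense transcript, and whether counting used strand is not known here.

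Cd3d, the CD3δ chain, was lower at 40 mJ/cm2 at the same times but passed the test at none. The exposed animals at 6 h had 1.19, 0.596, 1.12, 0.509 and 1.15 CPM of Cd3d, against 1.34, 1.39, 2.48, 1.58 and 2.59 CPM in sham animals, with no overlap (-1.05 ± 0.39, adjusted p = 0.133). The changes at 24, 48 and 72 h were -0.77 ± 0.37, -1.16 ± 0.47 and -1.32 ± 0.43 (adjusted p = 0.302, 0.146 and 0.162), and at 96 h it was -0.13 ± 0.44. Cd3d has a median count of 21 per library, so its error is wide. At 72 h 40 mJ/cm2 replicate 2 had 0 counts of Cd3d, which allows up to 0.959 CPM at its depth.

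Cd247, the ζ chain that carries most of the tyrosine motifs, fell at 6 h. Its levels were 3.91, 2.16, 2.58, 1.73 and 2.01 CPM in exposed animals, against 5.36, 4.86, 5.62, 3.85 and 6.75 CPM in sham animals (-1.11 ± 0.27, adjusted p = 0.0153), and 1 exposed animal, replicate 1, lay just inside the sham range. The call was lost without 40 mJ/cm2 replicates 2 or 5 or sham replicate 5. At 24, 48 and 72 h the changes of Cd247 were -0.87 ± 0.27, -0.75 ± 0.32 and -0.96 ± 0.30 (adjusted p = 0.0764, 0.171 and 0.136). Cd247 shares 3007 bp of exon with Pou2f1 on the other strand, a gene with a mean count of 377 per library, and 91.7% of its deposited values are not whole numbers, so its levels are less certain than those of the other CD3 genes.

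At 0 h the CD3 genes lay close to sham levels. Cd3g had 7.11, 10.1, 10.3, 11.7 and 7.07 CPM in exposed animals, against 10.4, 8.09, 11.8, 9.89 and 8.31 CPM in sham animals, and the groups overlapped throughout (-0.08 ± 0.25, adjusted p = 1). Cd3e changed by 0.05 ± 0.46, Cd3d by -0.17 ± 0.41, Cd247 by -0.05 ± 0.55 and Trdc by 0.24 ± 0.32 at 0 h. Summed over the 4 CD3 genes, the level was 10.2 ± 2.80 CPM in exposed and 20.8 ± 2.36 CPM in sham animals at 6 h, and 8.60 ± 3.79 CPM in exposed and 25.1 ± 1.24 CPM in sham animals at 72 h (SD, n = 5 each). At 96 h the sum was 15.4 ± 2.34 CPM in 4 exposed and 21.4 ± 4.36 CPM in 5 sham animals, and Cd3e, with 1.35, 2.40, 3.05 and 1.18 CPM in exposed against 3.63, 2.52, 2.19, 6.60 and 4.31 CPM in sham animals, overlapped (-0.94 ± 0.38, adjusted p = 0.86).

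Trdc, the constant region of the δ chain, fell at 24 and 48 h. At 24 h it had 3.69, 8.67, 11.4, 5.37 and 3.47 CPM in exposed animals, against 13.9, 18.7, 17.8, 18.6 and 13.7 CPM in sham animals, a change of -1.36 ± 0.29 (adjusted p = 0.0121) with no overlap. At 48 h the exposed animals had 7.79, 4.69, 2.24, 5.08 and 3.22 CPM of Trdc, against 12.2, 8.48, 15.5, 14.3 and 11.6 CPM in sham animals, a change of -1.50 ± 0.28 (adjusted p = 0.00145), again with no overlap. By the fitted fold, exposed skin held 39.0% of the sham level of Trdc at 24 h and 35.5% at 48 h. These calls were lost in none of the fits that left out 1 library.

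Trdc was not called at 6, 72 or 96 h, although its fold was negative at each. At 6 h the change was -0.78 ± 0.27 (adjusted p = 0.108), with 5.49 to 8.45 CPM in exposed animals against 10.8 to 14.6 CPM in sham animals, so the groups did not overlap. The call at 6 h depended on the fit. At folds of -0.82 to -0.76 Trdc was called by DESeq2 (adjusted p = 0.0172), with only the 2 groups compared (0.0202), without the libraries under 1 M counts (0.04) and with the muscle gene level in the fit (0.0493). At 72 h Trdc had 2.43, 1.34, 9.25, 3.53 and 4.85 CPM in exposed animals, against 13.9, 19.0, 16.7, 5.39 and 9.85 CPM in sham animals. The groups overlapped through exposed replicate 3 and sham replicate 4 (-1.65 ± 0.46, adjusted p = 0.0922). Without exposed replicate 3 the edgeR test called Trdc at 72 h. At 96 h the 4 exposed animals had 5.40, 6.70, 6.60 and 2.10 CPM, against 8.79, 16.1, 7.41, 13.3 and 11.6 CPM in sham animals, with no overlap but no call (-1.16 ± 0.39, adjusted p = 0.62).

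Itgae, the αE integrin chain, passed the test at 24 h, where it fell. The exposed animals had 3.98, 3.94, 4.30, 3.97 and 4.53 CPM of Itgae, against 7.27, 7.70, 6.38, 6.80 and 11.5 CPM in sham animals, with no overlap (-0.93 ± 0.24, adjusted p = 0.0398). This call stands close to the threshold: it was lost in 9 of 10 fits that left out 1 library, with -1.0 to -0.76 as the range of the fold. At 6, 48, 72 and 96 h the changes of Itgae were -0.67 ± 0.28, -0.68 ± 0.27, -0.41 ± 0.35 and -0.11 ± 0.34, none past the threshold. At 6 h the groups did not overlap either, with 3.12 to 4.93 CPM in exposed animals against 5.36 to 7.46 CPM in sham animals.

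**Figure D1:**
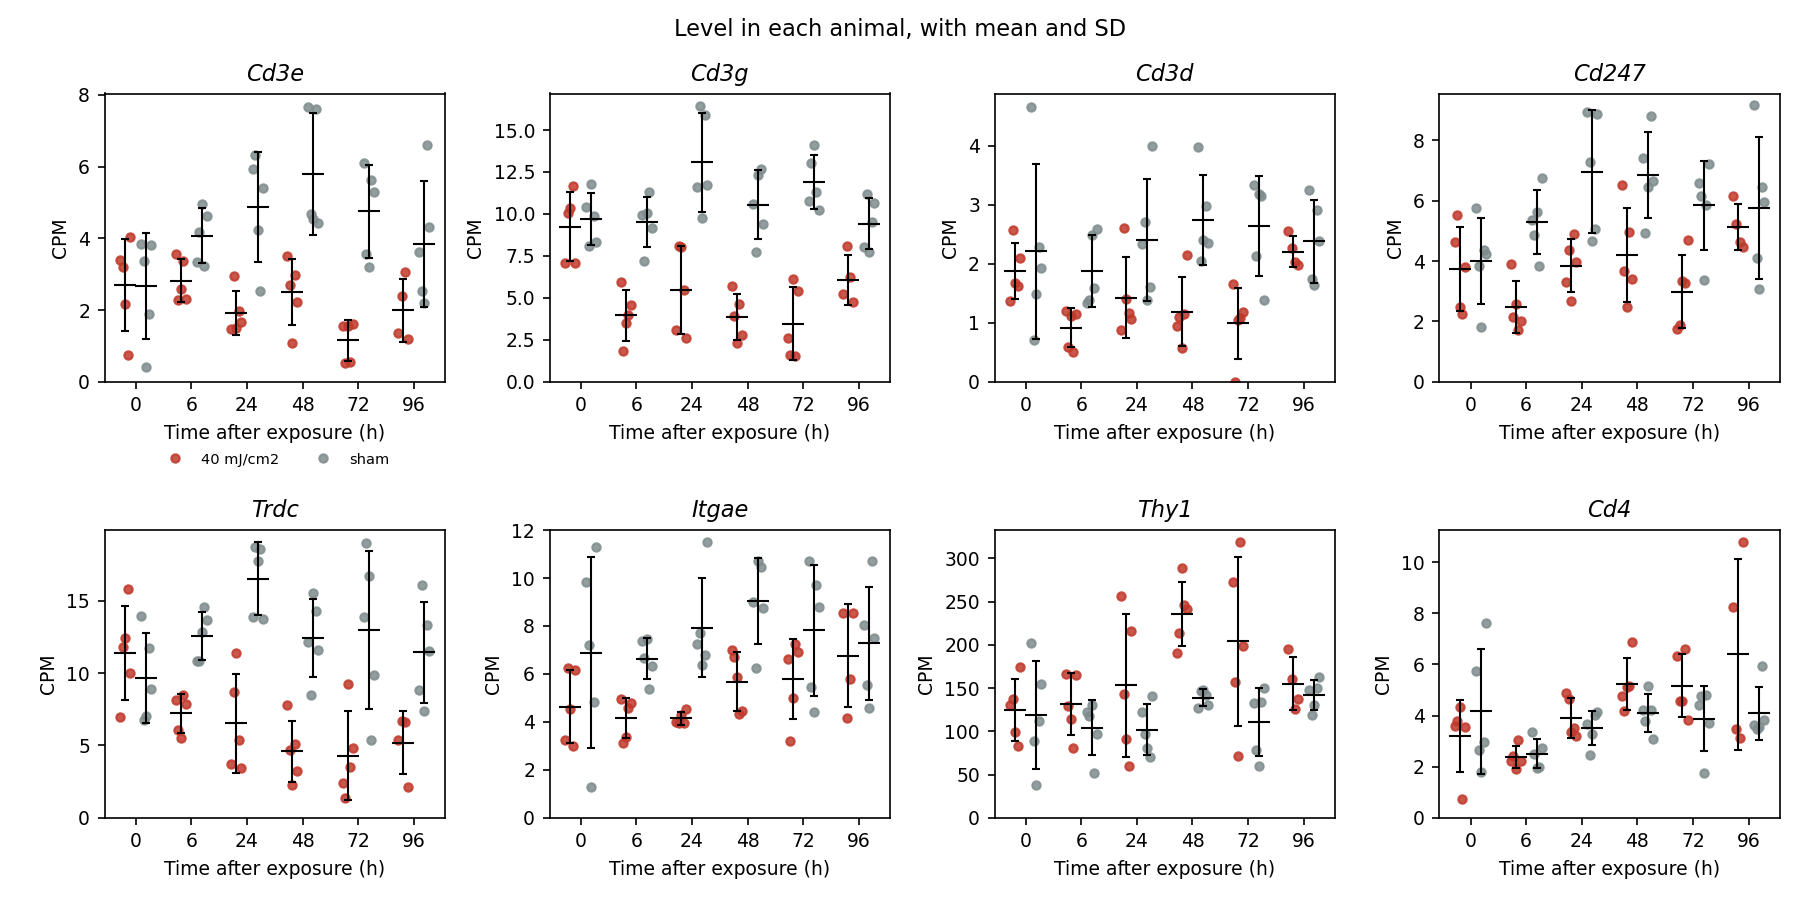
CPM of 8 member genes in each animal (y axis, linear, from 0) by time after exposure in hours (x axis), at 40 mJ/cm2 (red, left of each pair) and in sham animals (grey, right); the bar is the mean and the whisker the SD. The exposed animals lie below all sham animals for Cd3g from 6 to 72 h and for Trdc from 6 to 48 h, and above them for Thy1 at 48 h.

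Thy1 was the 1 member that rose. At 48 h it had 190, 214, 288, 246 and 242 CPM in exposed animals, against 127, 147, 147.9, 142 and 131 CPM in sham animals, with no overlap (0.75 ± 0.21, adjusted p = 0.0308). Its fold was above 0 at all 6 times at 40 mJ/cm2, from 0.07 ± 0.42 at 0 h to 0.90 ± 0.45 at 72 h (adjusted p = 0.496 at 72 h), and the level there ran from 71.6 to 319 CPM in exposed animals against 59.4 to 150 CPM in sham animals. The call at 48 h was lost in 8 of 10 fits that left out 1 library. Within groups the log2 CPM of Thy1 had a Pearson r of -0.87 with the log2 share of mitochondrial counts over 143 libraries, a description, since libraries also differ in depth and title ending. That share was 2.78 ± 0.694% in exposed and 4.37 ± 1.07% in sham animals at 48 h (SD, n = 5 each), and with it as a covariate Thy1 changed by 0.49 and was not called.

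Il2rb, the receptor chain through which interleukin-15 maintains lymphocytes, was called at no time. At 6 h it had 9.19, 8.53, 8.86, 6.11 and 9.68 CPM in exposed animals, against 8.04, 4.45, 8.63, 2.89 and 4.63 CPM in sham animals, a change of 0.61 ± 0.32 (adjusted p = 0.33) where the CD3 genes had negative folds. Its changes at 24, 48, 72 and 96 h were -0.26 ± 0.38, -0.31 ± 0.27, -0.47 ± 0.41 and 0.02 ± 0.31. Natural killer cells carry Il2rb as well.

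Neither coreceptor gene was called against sham. Cd4, which some dendritic cells also express, changed by -0.06 ± 0.30, 0.17 ± 0.32, 0.34 ± 0.21, 0.45 ± 0.34 and 0.64 ± 0.40 at 6, 24, 48, 72 and 96 h (adjusted p = 0.956, 0.887, 0.424, 0.775 and 1). At 96 h the 4 exposed animals had 8.24, 3.48, 3.12 and 10.8 CPM of Cd4, against 3.63, 3.47, 3.57, 5.94 and 3.81 CPM in sham animals, so 2 exposed animals stood above every sham animal and 2 did not. Cd8a averaged 0.931 ± 0.341 CPM in exposed and 0.600 ± 0.411 CPM in sham animals at 48 h (SD, n = 5 each; 0.85 ± 0.59, adjusted p = 0.495), and its SE was 0.52 or more at every time, so small changes of Cd8a were not detectable at this depth.

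By time, the test at 40 mJ/cm2 called 0 of 10 members at 0 h (0% of all genes tested), 2 at 6 h (4.89%), 4 at 24 h (2.92%), 4 at 48 h (7.73%), 2 at 72 h (1.26%) and 0 at 96 h (0.118%). Of these 12 calls 11 were falls, the exception being Thy1 at 48 h. At an unadjusted p under 0.05 the members counted 0, 5, 6, 7, 5 and 3 of 10 at these times, and all genes 832, 3252, 3066, 3710, 2051 and 885. The median fold of the 10 members was -0.12, -0.60, -0.82, -0.72, -0.72 and -0.12 at 0, 6, 24, 48, 72 and 96 h, while the median of all genes lay between -0.02 and 0.05. Every exposed animal lay below every sham animal for 4 members at 6 h (4.45% of all genes), 3 at 24 h (2.25%), 3 at 48 h (6.11%), 2 at 72 h (1.04%) and 1 at 96 h (1.19%).

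**Figure D2:**
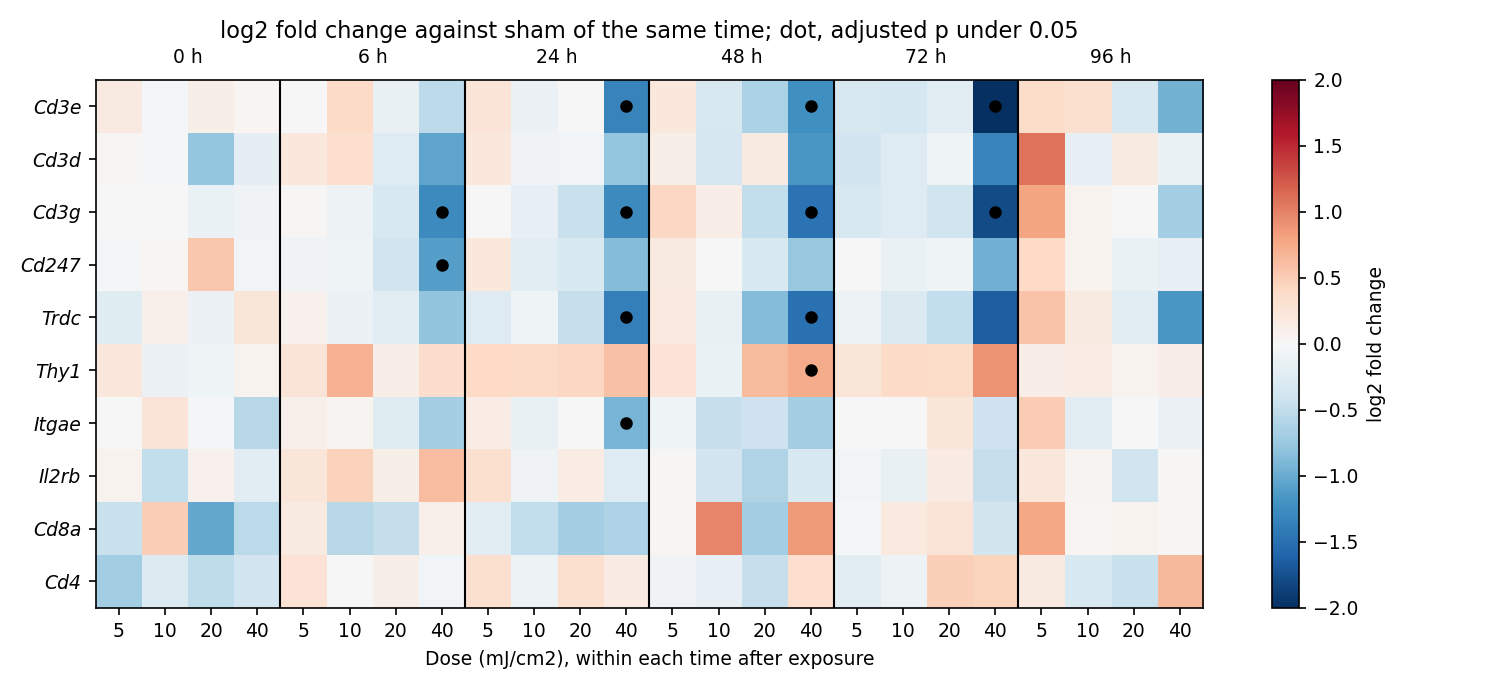
Log2 fold change against sham of the same time (colour, blue lower and red higher, limited to 2 either way) for the 10 members (rows) at 5, 10, 20 and 40 mJ/cm2 within each of 6 times (columns); a dot marks an edgeR adjusted p under 0.05. The 12 dots all lie in columns of 40 mJ/cm2 between 6 and 72 h, and 11 of them are falls.

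Library titles end in R1_001 or R1, and these libraries were also fitted apart. From 6 to 72 h each such fit held 2 or 3 animals at 40 mJ/cm2 and 2 or 3 sham animals, and at 20 mJ/cm2 and 48 h there was 1 R1_001 library. At 48 h Cd3g changed by -0.93 ± 0.32 within R1_001 libraries (adjusted p = 0.566) and by -1.82 ± 0.31 within R1 libraries (adjusted p = 0.005), and Trdc by -0.74 ± 0.37 (adjusted p = 0.795) and -1.97 ± 0.35 (adjusted p = 0.00593). At 72 h the order was the other way for Trdc, with -3.02 ± 0.39 within R1_001 libraries (adjusted p = 0.0393) and -0.84 ± 0.57 within R1 libraries (adjusted p = 1). For Cd3e at 24 h the values were -1.43 ± 0.33 and -1.16 ± 0.54 (adjusted p = 0.0824 and 1), and at 72 h -2.07 ± 0.71 and -1.92 ± 0.51 (adjusted p = 0.231 and 0.854). For Cd3g at 6 h they were -1.33 ± 0.39 and -1.25 ± 0.50 (adjusted p = 0.0809 and 1). All of these folds kept the sign of the joint fit, but at 6 and 24 h no member was called within either kind of library. The labels do not say what the endings stand for.

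Below 40 mJ/cm2 no member passed the edgeR test. At 20 mJ/cm2 edgeR called 0 of 10 members at each time, against 0%, 0.434%, 0.075%, 0.482%, 0% and 0% of all genes at 0, 6, 24, 48, 72 and 96 h, and at 10 and 5 mJ/cm2 0 of 10 members and 0% of all genes at each time. Of the 180 member tests at these 3 doses 6 had an unadjusted p under 0.05, 3 of them at 20 mJ/cm2 and 48 h, where 21.3% of all genes did, 2 at 5 mJ/cm2 and 96 h (9.53%) and 1 at 10 mJ/cm2 and 6 h (8.42%). DESeq2 called 1 of the members at 20 mJ/cm2, Trdc at 48 h. At that dose and time Trdc had 6.32, 9.50, 4.88 and 6.47 CPM in exposed animals, against 12.2, 8.48, 15.5, 14.3 and 11.6 CPM in sham animals (-0.86 ± 0.29, edgeR adjusted p = 0.111). Thy1 had 154, 223, 190 and 322 CPM there, each above the 127 to 147.9 CPM of sham animals (0.63 ± 0.23, adjusted p = 0.13), Cd3e had 3.05 to 3.80 CPM, each below the 4.44 to 7.67 CPM of sham animals, and Il2rb changed by -0.60 ± 0.28 (adjusted p = 0.23). The share of all genes without overlap was not counted at this dose.

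At 5 mJ/cm2 and 96 h the folds were positive. All 10 members had a fold above 0, with a median of 0.46 against 0.06 over all genes, of which 44.3% lay below 0, and none was called. Other lists had positive medians there too, among them 1.63 for 6 adipocyte genes, 0.82 for 6 mast cell genes, 0.75 for 19 cytotoxic genes and 0.44 for 9 Langerhans cell genes. Cd3g averaged 16.9 ± 5.14 CPM in the 4 exposed and 9.43 ± 1.54 CPM in the 5 sham animals (SD; 0.78 ± 0.28, edgeR adjusted p = 0.501). For Cd3g every exposed animal lay above every sham animal, but the share of all genes so placed was not counted. In that comparison 9.53% of all genes had an unadjusted p under 0.05. Cd3d at 5 mJ/cm2 averaged 5.13 ± 4.05 CPM in exposed and 2.38 ± 0.705 CPM in sham animals (1.08 ± 0.43, adjusted p = 0.503), with 1 exposed animal, replicate 4, at 11.2 CPM. At 10 mJ/cm2 only Thy1 at 6 h had an unadjusted p under 0.05 (0.70 ± 0.33, adjusted p = 0.589).

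The difference between 40 and 20 mJ/cm2 was itself tested. Cd3e was lower at 40 than at 20 mJ/cm2 at 24 h (-1.32 ± 0.26, adjusted p = 0.032) and at 72 h (-1.76 ± 0.39, adjusted p = 0.0453). At 24 h it had 1.48 to 2.96 CPM at 40 mJ/cm2 against 3.49 to 5.89 CPM at 20 mJ/cm2, and at 72 h 0.536 to 1.62 CPM against 3.15 to 6.19 CPM, with no overlap at either time. Including Cd3e, 2 members lay without overlap at 24 h and 3 at 72 h, all lower at 40 mJ/cm2. The share of all genes so placed was not counted for this comparison. Cd3g was lower at 40 mJ/cm2 at 48 h (-0.99 ± 0.25, adjusted p = 0.0198). Cd4 was higher: at 48 h it had 4.77, 4.18, 5.13, 5.15 and 6.89 CPM at 40 mJ/cm2, against 3.76, 2.60, 2.93 and 2.75 CPM at 20 mJ/cm2 (0.80 ± 0.23, adjusted p = 0.0351). These were the 4 calls among the members; by time the test called 0.00535%, 0%, 0.166%, 7.81%, 0.418% and 0.00535% of all genes at 0, 6, 24, 48, 72 and 96 h.

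A slope over log2 dose among the 4 exposed groups leaves out the sham animals. It was negative and called for Cd3g at 6 h (-0.40 ± 0.10 per doubling of dose, adjusted p = 0.0442) and for Cd3e at 24 h (-0.44 ± 0.10, adjusted p = 0.0435). At 48 h it was called for Cd3g (-0.62 ± 0.09, adjusted p = 0.000145), Trdc (-0.58 ± 0.09, adjusted p = 0.00042) and Cd3e (-0.46 ± 0.10, adjusted p = 0.0112). No member was called at 0, 72 or 96 h, and the shares of all genes called were 0%, 1.42%, 0.953%, 3.84%, 0.6% and 0.0428% at the 6 times. DESeq2 called 16 member slopes over the 6 times, against 5 by edgeR. The shares above are those of edgeR, and the share of all genes called by DESeq2 is not given here.

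At 48 h the level of Cd3g averaged 10.5 ± 2.05, 14.1 ± 2.37, 11.8 ± 1.82, 7.52 ± 2.36 and 3.87 ± 1.38 CPM at 0, 5, 10, 20 and 40 mJ/cm2 (SD, n = 5, and n = 4 at 20 mJ/cm2). Trdc averaged 12.4 ± 2.71, 14.6 ± 3.51, 11.5 ± 3.14, 6.79 ± 1.94 and 4.6 ± 2.11 CPM over the same doses. For both genes the means at 5 mJ/cm2 were the highest of the 5, within the spread of sham animals for Trdc, and those at 20 mJ/cm2 lay between 10 and 40 mJ/cm2. Cd3e averaged 5.79 ± 1.70, 6.79 ± 2.75, 4.6 ± 1.84, 3.58 ± 0.355 and 2.50 ± 0.917 CPM.

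**Figure D3:**
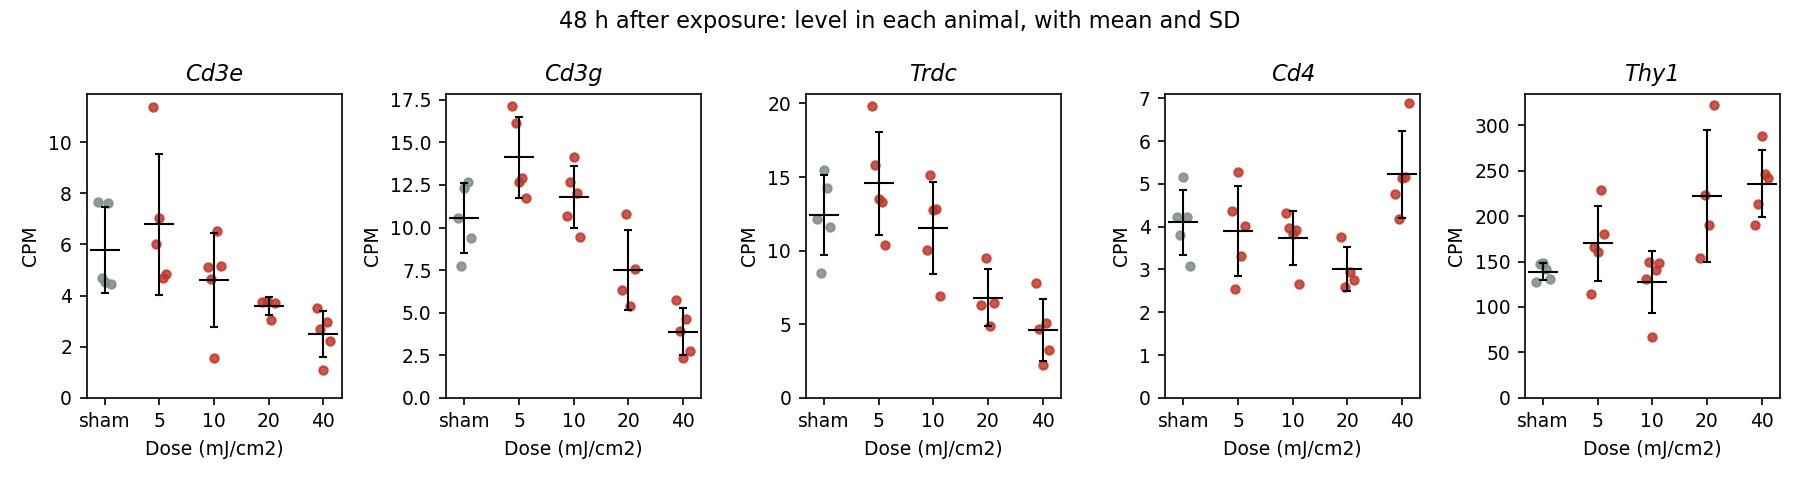
CPM of Cd3e, Cd3g, Trdc, Cd4 and Thy1 in each animal at 48 h (y axis, linear, from 0) by dose in mJ/cm2, with sham at the low end (grey) and exposed groups in red; the bar is the mean and the whisker the SD. The means of Cd3e, Cd3g and Trdc decline from 5 to 40 mJ/cm2, while that of Cd4 is lowest at 20 and highest at 40 mJ/cm2.

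Whether the change at 40 mJ/cm2 itself moved between times was tested for 5 pairs of times, and 0 of 10 members was called in any. The shares of all genes called were 0.155% for 24 against 6 h, 0% for 48 against 24 h, 0% for 72 against 48 h, 0.0375% for 96 against 72 h and 0.0696% for 96 against 48 h. The members with an unadjusted p under 0.05 were Cd3g (1.12 ± 0.39), Cd3e (1.09 ± 0.51) and Cd3d (1.22 ± 0.58) for 96 against 72 h, and Cd3g for 96 against 48 h (0.79 ± 0.39). Their edgeR adjusted p ran from 0.385 to 0.634, so a return toward the sham level at 96 h was not shown by this test.

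Other genes of the receptor pathway were followed at 40 mJ/cm2 in lists of receptor chains, signalling genes and T cell subsets. Beside them, the test called 4.89%, 2.92%, 7.73% and 1.26% of all genes at 6, 24, 48 and 72 h. Of 6 further receptor chain genes tested, 0 rose and 2, 2 and 1 fell at 24, 48 and 72 h, with medians of -0.81, -1.09 and -1.16. Those that fell were γ constant genes. Tcrg-C1 averaged 4.13 ± 2.63 CPM in exposed and 10.9 ± 3.91 CPM in sham animals at 24 h (-1.41 ± 0.37, adjusted p = 0.0397), 2.66 ± 1.37 CPM in exposed and 8.06 ± 2.65 CPM in sham animals at 48 h (-1.66 ± 0.40, adjusted p = 0.0112) and 2.05 ± 1.74 CPM in exposed and 9.47 ± 3.84 CPM in sham animals at 72 h (-2.24 ± 0.49, adjusted p = 0.0212). Tcrg-C2 fell at 24 h (-1.75 ± 0.43, adjusted p = 0.0298) and Tcrg-C4 at 48 h (-1.47 ± 0.33, adjusted p = 0.00725). The γ constant genes are close copies of each other, as are Trbc1 and Trbc2, so reads may be shared among them.

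The αβ chain genes of that list did not pass the test at any time. All 6 tested chain genes, αβ genes included, had folds below 0 at 6, 24 and 48 h, against 5 at 72 h and 4 at 96 h. The values that follow leave out 6 and 24 h. Trbc2, a β constant gene, averaged 12.5 ± 1.88 CPM in exposed and 13.6 ± 2.81 CPM in sham animals at 48 h (-0.11 ± 0.27, adjusted p = 0.901), 15.8 ± 6.26 CPM in exposed and 13.2 ± 2.08 CPM in sham animals at 72 h (0.28 ± 0.30, adjusted p = 0.904), and 16.4 ± 3.98 CPM in exposed and 10.8 ± 1.63 CPM in sham animals at 96 h (0.60 ± 0.35, adjusted p = 1). Trac, the α constant gene, averaged 1.60 ± 0.534 CPM in exposed and 2.86 ± 1.75 CPM in sham animals at 48 h (-0.72 ± 0.40, adjusted p = 0.353) and 1.19 ± 0.797 CPM in exposed and 1.51 ± 0.849 CPM in sham animals at 72 h (-0.29 ± 0.51, adjusted p = 0.972). The difference between the γδ and the αβ chain genes was not tested.

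Of 22 signalling genes tested, 3 fell at 6 h, and 2 fell and 1 rose at 48 h, with medians of -0.19 and -0.13, and 0 were called at 0, 24, 72 and 96 h. Over all genes 4.89% were called at 6 h and 7.73% at 48 h, so 3 of 22 at 48 h is not far from that share. Trat1, an adaptor bound to the receptor ζ chain, fell at 6 h (1.23 ± 0.72 CPM in exposed against 3.91 ± 0.786 CPM in sham animals, -1.68 ± 0.42, adjusted p = 0.0193) and at 48 h (-1.38 ± 0.34, adjusted p = 0.0132). Grap2, an adaptor of the SLP-76 complex, fell at 6 h (-0.82 ± 0.22, adjusted p = 0.0312), as did Themis, a regulator of receptor signalling, with 0.0895 ± 0.127 CPM in exposed and 0.632 ± 0.286 CPM in sham animals (adjusted p = 0.0396). At 48 h Prkcq, a kinase of T cells that skeletal muscle also expresses, fell (-0.89 ± 0.15, adjusted p = 0.000602), and Lcp2, the SLP-76 adaptor that myeloid cells also use, rose (1.08 ± 0.20, adjusted p = 0.00136).

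Among 17 genes of T cell survival and homing, Ccr4, a skin homing receptor, fell at 6 h (-1.83 ± 0.39, adjusted p = 0.00609), 24 h (-1.05 ± 0.26, adjusted p = 0.0293) and 48 h (-1.22 ± 0.35, adjusted p = 0.0324). Ccl27a, a keratinocyte chemokine that draws T cells to skin, fell at 48 h (-1.19 ± 0.35, adjusted p = 0.0345). Cxcl16 rose at 6 h at 40 mJ/cm2 (1.25 ± 0.21, adjusted p = 0.00122) and at 20 mJ/cm2 (0.95 ± 0.21, adjusted p = 0.0415), and Il2rg, the common γ cytokine receptor chain, rose at 48 h (0.62 ± 0.18, adjusted p = 0.0377). Il15, the cytokine that Il2rb helps to bind, was not called at any time. The counts over the list were 1 up and 1 down at 6 h, 0 and 1 at 24 h, and 1 and 2 at 48 h.

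The lists of T cell subsets gave few calls. Of 8 regulatory T cell genes, Ikzf2 fell (-1.22 ± 0.28, adjusted p = 0.00985) and Tnfrsf4 rose (1.23 ± 0.33, adjusted p = 0.0267) at 6 h. Of 19 cytotoxic and natural killer genes, Xcl1 fell (-1.71 ± 0.44, adjusted p = 0.0167) and Eomes rose (2.01 ± 0.51, adjusted p = 0.0158) at 48 h. That is 2 of 19, near the 7.73% of all genes called then, and the list's summed level was 34.2 to 47.2 CPM in exposed against 30.8 to 55.3 CPM in sham animals.

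**Figure D4:**
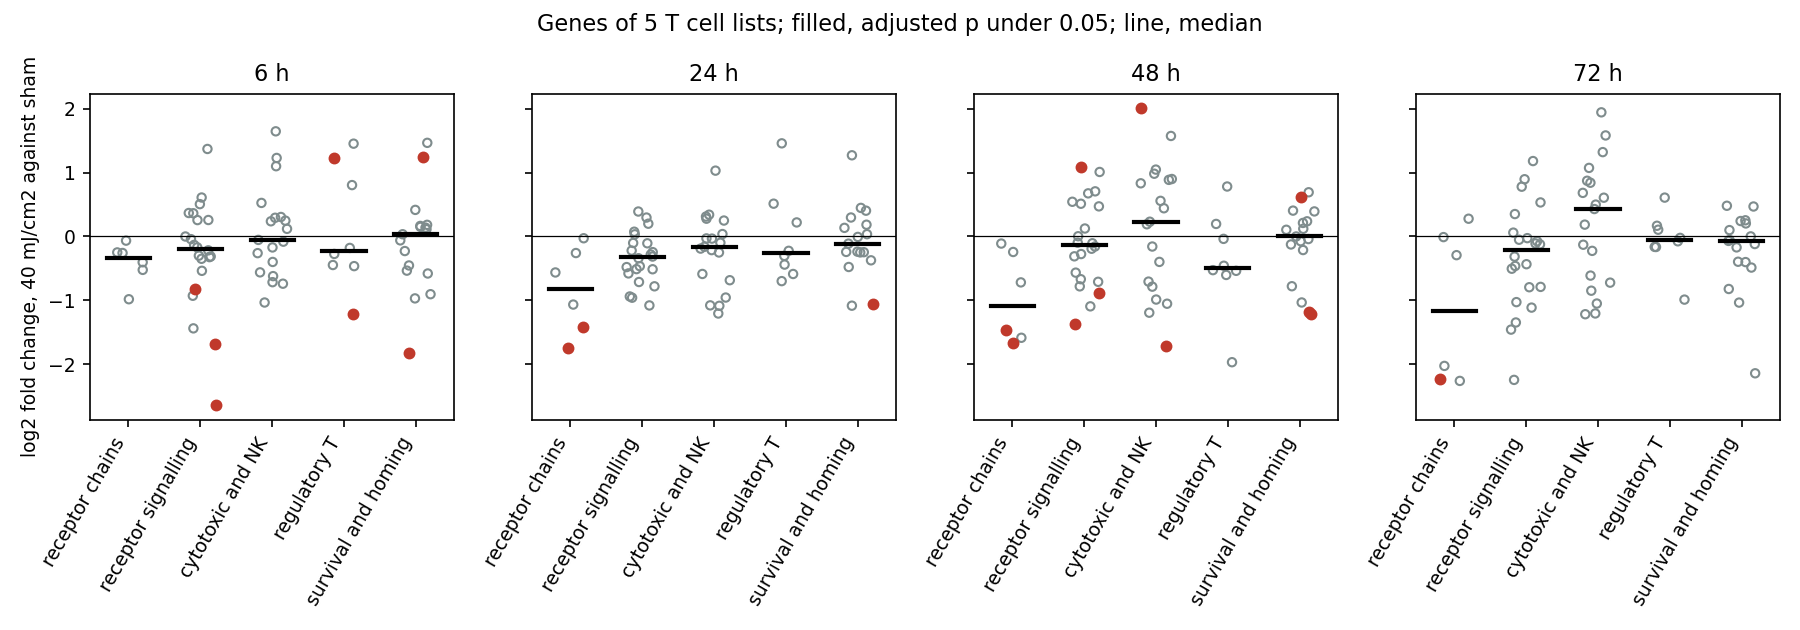
Log2 fold change at 40 mJ/cm2 against sham (y axis) for each tested gene of 5 T cell lists at 6, 24, 48 and 72 h; filled red points have an edgeR adjusted p under 0.05 and the line is the list's median. The receptor chain list has medians of -0.33, -0.81, -1.09 and -1.16 at these times, and the cytotoxic list lies on both sides of 0. The T cell list that is not reported here is not drawn.

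Markers of other cells moved at the same times. At 48 h 8 of 14 skeletal muscle genes fell and their sum ran from 17500 to 30900 CPM in exposed against 38400 to 62900 CPM in sham animals, 5 of 11 macrophage genes rose (summed level 1150 to 2330 against 1080 to 1570 CPM), and 5 of 6 neutrophil genes rose (27.8 to 284 against 2.38 to 18.9 CPM). At 72 h 5 of 6 neutrophil genes rose as well (10.1 to 795 against 4.84 to 13.4 CPM). Of 14 muscle genes Tnnt3 fell at 24 h (-0.77 ± 0.21, adjusted p = 0.0483), when 2.92% of all genes were called. Of 2 B cell genes tested, Cd79a rose at 6 h (1.74 ± 1.02 CPM in exposed and 0.091 ± 0.118 CPM in sham animals, adjusted p = 0.00117), beside 4.89% of all genes. Of 6 suprabasal keratinocyte genes, Flg rose at 72 h (3.18 ± 0.69, adjusted p = 0.0216) and 96 h (5.18 ± 0.90, adjusted p = 0.0282), and Krt1 at 96 h (2.31 ± 0.42, adjusted p = 0.0305). Of 8 fibroblast genes 0 rose and 2 fell at 48 h, Col1a2 (-0.94 ± 0.23, adjusted p = 0.0122) and Col1a1 (-0.79 ± 0.22, adjusted p = 0.0261). The sum of the 8 ran from 27800 to 46000 CPM in exposed against 51500 to 66900 CPM in sham animals. In sham animals Col1a2 averaged 22200 ± 1790 CPM and Col1a1 14500 ± 1210 CPM, so these 2 weigh heavily in the sum. The median fold of the 8 was -0.18, with 5 below 0. Cd207, the langerin gene of Langerhans cells, which share the epidermis with γδ T cells, fell at 24, 48 and 72 h (-1.40 ± 0.34, -1.87 ± 0.34 and -1.90 ± 0.33, adjusted p = 0.0257, 0.00126 and 0.00699), and was the 1 of 9 Langerhans list genes called. The epidermal gene Krt14 rose at 48 h, with 3270 ± 731 CPM in exposed and 1000 ± 205 CPM in sham animals (adjusted p = 0.00725). It was the 1 of 6 basal keratinocyte genes called then, and 2 of the 6 had folds below 0. The part of these other cells in the member changes was not tested beyond refitting with a covariate. With the muscle gene level in the fit Cd3g and Trdc at 48 h changed by -1.53 ± 0.30 and -1.48 ± 0.35 (adjusted p = 0.00203 and 0.00765), Thy1 by 1.09 ± 0.26 (adjusted p = 0.008), and Cd247 and Itgae, which were called neither there nor in the fit without it, by 0.25 ± 0.30 and -0.05 ± 0.31. With the mitochondrial share in the fit, an alternative chosen after seeing the data, 7 members fell at 48 h: Cd3e, Cd3d, Cd3g, Cd247, Trdc, Itgae and Il2rb, by -1.72 (Cd3d) to -0.68 (Il2rb). The share of all genes called in that fit is not given here, so the count of 7 has no background beside it.

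Within groups the 10 members did not vary as 1 block. After taking out the mean of each dose and time group, the log2 CPM of Cd3g correlated with that of Trdc at r = 0.73 over 143 libraries of at least 1 M counts, and with that of Cd3e at only 0.17. Cd3e correlated with Cd247 (0.64), Itgae (0.57), Il2rb (0.54) and Cd3d (0.51). Thy1 ran against Trdc (-0.53) and Cd3g (-0.47). The share of mitochondrial counts ran with Trdc (0.50) and Cd3g (0.39) and against Thy1 (-0.87), Il2rb (-0.62), Cd247 (-0.48), Itgae (-0.46), Cd4 (-0.46), Cd3e (-0.37) and Cd3d (-0.25), and with Cd8a at -0.02. These values are a description, since libraries also differ in depth, title ending and RNA makeup.

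**Figure D5:**
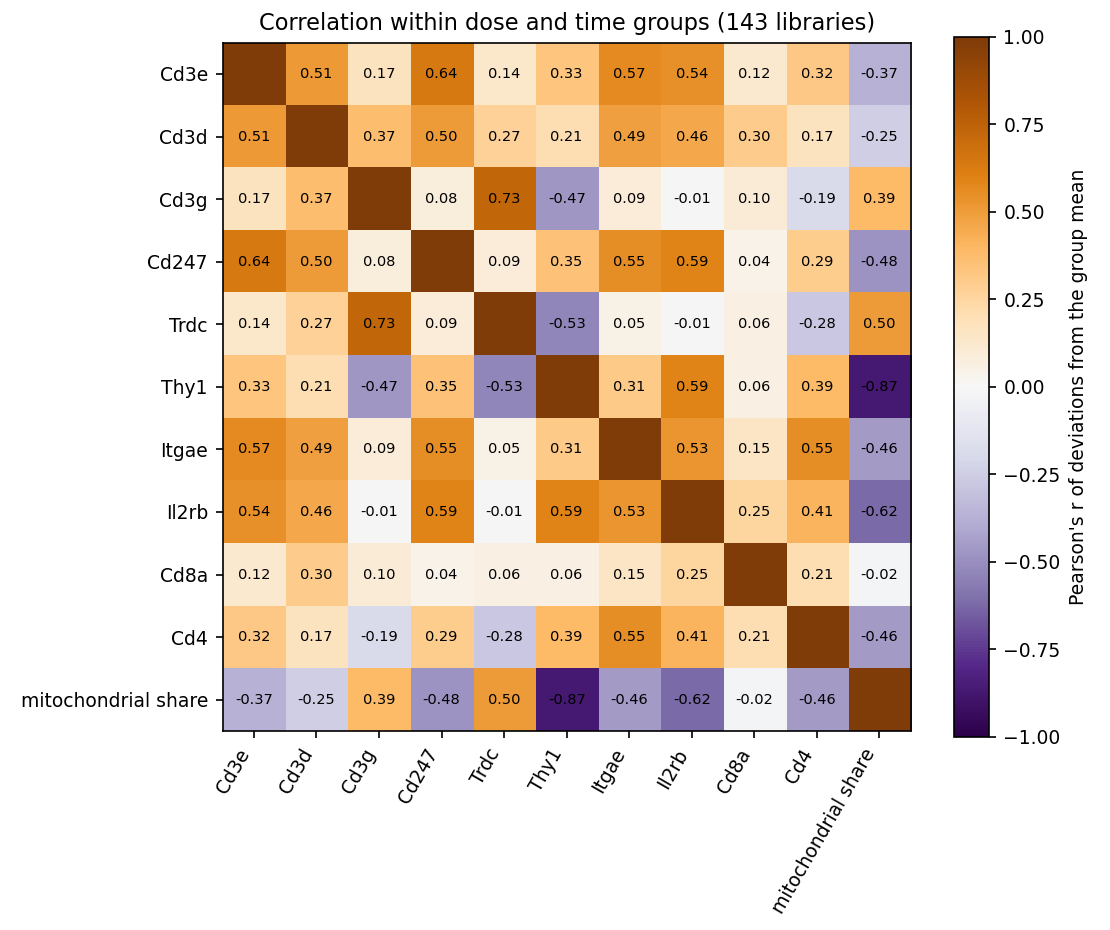
Pearson's r between deviations from the dose and time group mean in log2 CPM, for each pair of the 10 members and the log2 share of mitochondrial counts, over 143 libraries. Cd3g and Trdc form a pair (0.73), Cd3e, Cd3d, Cd247, Itgae and Il2rb lie between 0.46 and 0.64 with each other, and Thy1 has -0.87 with the mitochondrial share.

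Over the same 143 libraries, the other genes whose level was most like the mean of the 4 CD3 genes, out of 15606 ranked, were the chemokine scavenger receptor Ackr4 (r = 0.69), Serpina3h (0.68), the annexin Anxa8 (0.65), the serotonin transporter Slc6a4 (0.65), perforin, Prf1 (0.64), Mesp2 (0.63), Cpxm2 (0.63), the keratin Krt15 (0.61), Tprgl (0.61) and Herpud1 (0.61). Itgae had 0.59 and Il2rb 0.55 on the same measure, Trdc 0.39, Cd4 0.21, Cd8a 0.21 and Thy1 0.18.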

How the data were processed

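RNA of dorsal skin was read as single 75-base reads from stranded poly(A) libraries, per the labels. Expected counts for each gene are what the authors deposited, and 12.6% of the values are not whole. The submitters' processing notes list STAR 2.7.10a, fastp 0.23.0, bcl2fastq 2.20.422, GRCm39 and DESeq2 1.36.1. The program behind the counts, its gene models and its use of strand are not given in those sources. Symbols were matched by Ensembl identifier through GENCODE vM21 for 52083 of 55416 genes; the others held 0.0906% of counts.

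The rounded values went into edgeR 4.0.16 under R 4.3.3 (quasi-likelihood F tests, TMM, filterByExpr with the 30 groups, 18677 genes), with 5 dose groups per time in 1 fit and the title ending (71 libraries R1_001, 74 R1) as covariate, and called at an adjusted p under 0.05. The SE is the log2 fold change divided by the root of F. Log2 CPM used a prior count of 2. DESeq2 1.42.0 was an alternative. The test was tested on simulated data. A library at 0 counts allows 3 counts, for counting error only. Group means are over animals. The genes named are all 10 members, the called genes of each list (at most 4 per list and time) and the 10 genes most like the CD3 mean; where more genes of a list were called than are named, the text gives counts; Trbc2, Trac and Il15 were named after their values were seen, and 1 T cell list is not reported here. The members and the lists were chosen with earlier results of these data known.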

Additional observations from a re-analysis of the deposited data

Results flagged for a closer look

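Of 300 sets of 4 or 5 animals of a group for 1 member gene, 22 had an animal that stood apart from its group by Dixon's gap test, and chance alone flags about 1 in 20 such sets. The values are CPM, with the nearest other animal after each.

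Cd8a, with few counts, gave 6 of them. Replicate 5 at 5 mJ/cm2 and 0 h had 2.08 (0.196), replicate 3 at 10 mJ/cm2 and 0 h 3.97 (0.457), replicate 4 at 40 mJ/cm2 and 6 h 1.02 (0.384), replicate 5 at 10 mJ/cm2 and 48 h 2.72 (0.798), and sham replicate 5 at 96 h 0.94 (0.382), each the highest of its group. Cd8a in replicate 3 at 20 mJ/cm2 and 72 h was the lowest of its group at 0.0747 (0.688).

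The 2 libraries under 1 M counts account for 3 more. In replicate 5 at 20 mJ/cm2 and 0 h Cd247 had 51.5 (3.94) and Thy1 15.4 (113), and in replicate 5 at 10 mJ/cm2 and 6 h Cd247 had 0 (4.21), where a count of 0 allows up to 16.7 CPM. Replicate 3 at 10 mJ/cm2 and 48 h was the lowest of its group in 3 genes: Cd3d at 0.283 (2.38), Thy1 at 67.5 (131) and Il2rb at 2.27 (8.43). That library had 11.2% mitochondrial counts, the highest share at its dose and time.

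Among the CD3 genes, Cd3e was low at 3.05 (3.72) in replicate 3 at 20 mJ/cm2 and 48 h and high at 5.18 (3.49) in replicate 4 at 10 mJ/cm2 and 72 h. Cd3d was high at 4.24 (1.99) in replicate 5 at 5 mJ/cm2 and 0 h and at 11.2 (3.51) in replicate 4 at 5 mJ/cm2 and 96 h.

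Itgae was low at 5.60 (7.12) in replicate 5 at 5 mJ/cm2 and 6 h and high at 11.5 (7.70) in sham replicate 5 at 24 h, a group of the call at 24 h. Il2rb was low at 4.25 (6.29) in replicate 1 at 20 mJ/cm2 and 96 h. Cd4 was low at 0.753 (3.55) in replicate 4 at 40 mJ/cm2 and 0 h, and high at 7.27 (3.79) in replicate 5 at 5 mJ/cm2 and 24 h and at 5.94 (3.81) in sham replicate 4 at 96 h.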

How the results depend on the processing

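None of the 12 called folds at 40 mJ/cm2 changed sign. Their call held in 93 of 120 fits that left out 1 library and in 87 of 122 other alternatives. At 6 h the 2 calls became 3, with Trdc added, by DESeq2, with only the 2 groups compared, without libraries under 1 M counts and with the muscle gene level as a covariate, 1 without the filter on low counts, 0 within R1 and 0 within R1_001 libraries, and 1 to 2 leaving out 1 library. At 24 h the 4 calls became 5, with Cd247 added, by DESeq2 (adjusted p = 0.0212) and with the mitochondrial share as a covariate (adjusted p = 0.00505), stayed 4 in number with the muscle gene level, where Itgae was lost and Thy1 was called at 1.14 (adjusted p = 0.0111), became 3 in 1 fit of all libraries and without the filter, 0 in a fit of only the 2 groups compared, 0 within either ending, and 2 to 4 leaving out 1 library. At 48 h the 4 calls became 7 with the mitochondrial share as a covariate (chosen after seeing the data), 6 with only the 2 groups, 3 in 1 fit of all libraries and with the muscle gene level, 2 within R1, 0 within R1_001, and 2 to 4 leaving out 1 library. At 72 h the 2 calls became 4 in 1 fit of all libraries, by DESeq2, and with the mitochondrial share or the muscle gene level as a covariate, 0 with only the 2 groups, 0 within R1, 1 within R1_001, and 1 to 3 leaving out 1 library. At 20 mJ/cm2 the count over all times, 0, became 1 by DESeq2, 2 with the muscle gene level, and 0 to 1 leaving out 1 library. The 5 called slopes became 16 by DESeq2. Shares of all genes called in these alternative fits are not given, so the member counts have no background beside them. The cause was not tested; fits within 1 ending or of 2 groups hold fewer samples. No paired analysis was possible because replicate numbers follow accession order and each library is a different animal. Cd8a, with a median count of 5, limits any statement on cytotoxic T cells.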
